A study of Mus musculus with 6 samples.

Results

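The mitochondrial ribosomal proteins are the nuclear-encoded proteins of the ribosome that works inside mitochondria. They were taken here as every gene of the liver RPKM table whose symbol is Mrpl or Mrps followed by a number and, in some, a letter. The rule found 77 of 17624 genes, 48 of the large subunit (Mrpl) and 29 of the small subunit (Mrps). Hepatic mRNA was measured by RNA-seq in 3 conF1-F and 3 iAsF1-F livers. All were from C57BL/6 females of the F1 generation, which did not themselves drink water with inorganic arsenic (iAs). iAsF1-F mice were offspring of C57BL/6 males given iAs in their drinking water for 3 weeks before mating with unexposed females, and conF1-F mice were offspring of males without iAs. The labels state that livers were taken from fed mice, whereas a legend of the study names a refed state. The livers of a group were biological triplicates by the study's methods. Age at collection and litter are not given in the labels, so p-values measure only the spread between these livers.

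Mammalian mitochondria translate a small set of proteins, all of them subunits of the respiratory chain and of ATP synthase, on a ribosome of their own. Its rRNAs are copied from mitochondrial DNA. Each of its proteins is encoded in the nucleus, translated in the cytosol and imported. The proteins form a large subunit, where peptide bonds are made, and a small subunit, which binds and decodes the mRNA. Some descend from proteins of the bacterial ribosome and others have no bacterial counterpart. The liver is rich in mitochondria, and the comparison of iAsF1-F with conF1-F livers asked whether mRNA levels of these genes differed after paternal exposure.

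Values are RPKM (reads scaled to the length of the transcript and to the mapped reads of the library) as the authors made them. Read numbers are unknown, and the relative depth, estimated from the smallest values, lay between 67.0% (iAsF1-F 1) and 100% (iAsF1-F 3) of the deepest library. The 6 hepatocyte markers were among the tested genes, with summed levels of 35569 to 41762 RPKM in conF1-F and 37812 to 43019 RPKM in iAsF1-F. Of 5 erythroid markers, all had the lower mean in iAsF1-F, with sums of 372 to 647 RPKM in conF1-F and 237 to 367 RPKM in iAsF1-F. Kupffer cell markers summed to 53.8 to 97.5 RPKM in conF1-F and 26 to 84.3 RPKM in iAsF1-F. Endothelial markers summed to 9.64 to 13.7 RPKM in conF1-F and 0.146 to 13.9 RPKM in iAsF1-F. Stellate cell markers summed to 29.7 to 51.9 RPKM in conF1-F and 38.7 to 44.3 RPKM in iAsF1-F. Epcam, Krt7 and Krt19 (cholangiocytes), Adgre1 (macrophages) and Stab2 (sinusoidal endothelium) were not among the genes listed, so their levels are unknown. The same holds for Pdgfrb (stellate cells), Cd3e and Cd79a (T and B cells). The part of these other cells in the members' values was not tested, and in whole liver fewer cells of a type and less RNA per cell cannot be told apart.

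No member passed the test between iAsF1-F and conF1-F livers. Of the 77 members, 68 averaged 1 RPKM or more across the livers and were compared as log2(RPKM + 1) by limma, 44 of the large and 24 of the small subunit. Fold changes below are on this log2 scale, iAsF1-F minus conF1-F, on which changes of genes with little RPKM appear smaller than they are. At a Benjamini-Hochberg adjusted p under 0.05 over all 6448 tested genes, 0 members were called, beside 0.248% of all tested genes (16 genes, with 0.124% higher and 0.124% lower). At an unadjusted p under 0.05, limma gave 1 large and 2 small subunit members, together 4.41% of the tested members beside 5.12% of all tested genes. The smallest adjusted p of a member was 0.877.

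The levels of most members were close in all livers. Of the 68 tested members, 51 were above 0 in every liver, and in 38 of these the highest liver was less than 2-fold above the lowest (74.5%, beside 65.3% of all tested genes that were above 0 in every liver). The 95% interval of the log2 fold change lay within 1 of 0 for 43 of the 51 and within 0.5 of 0 for 26. For these 26 genes a change of 0.5 on the log2 scale lies outside the interval. For the other members the livers leave a wider range, so that no call does not mean no change.

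Summed over tested members, the large subunit stood at 366 ± 17.7 RPKM (SD, n = 3) in conF1-F and 359 ± 12 RPKM (SD, n = 3) in iAsF1-F. The small subunit summed to 165 ± 8.11 RPKM (SD, n = 3) in conF1-F and 158 ± 24.2 RPKM (SD, n = 3) in iAsF1-F. By liver, the large subunit sums were 367, 347 and 383 RPKM in conF1-F and 347, 371 and 358 RPKM in iAsF1-F, and the groups overlapped. Those of the small subunit were 159, 162 and 174 RPKM in conF1-F and 134, 155 and 183 RPKM in iAsF1-F, with both the lowest and the highest liver in iAsF1-F. The ratio of the large to the small sum was 2.22 ± 0.086 (SD, n = 3) in conF1-F and 2.31 ± 0.32 (SD, n = 3) in iAsF1-F. These sums include members listed at 0 in some livers. Over members above 0 in every liver, the large subunit summed to 320 ± 9.12 RPKM (SD, n = 3) in conF1-F and 306 ± 8.25 RPKM (SD, n = 3) in iAsF1-F. The small subunit then summed to 141 ± 9.94 RPKM (SD, n = 3) and 132 ± 16.4 RPKM (SD, n = 3), and the groups overlapped in both. By liver, these large subunit sums were 316.1, 313.9 and 330.7 RPKM in conF1-F and 297.8, 304.8 and 314.2 RPKM in iAsF1-F. Their overlap was narrow, with conF1-F 2 just below iAsF1-F 3.

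**Figure D1:**
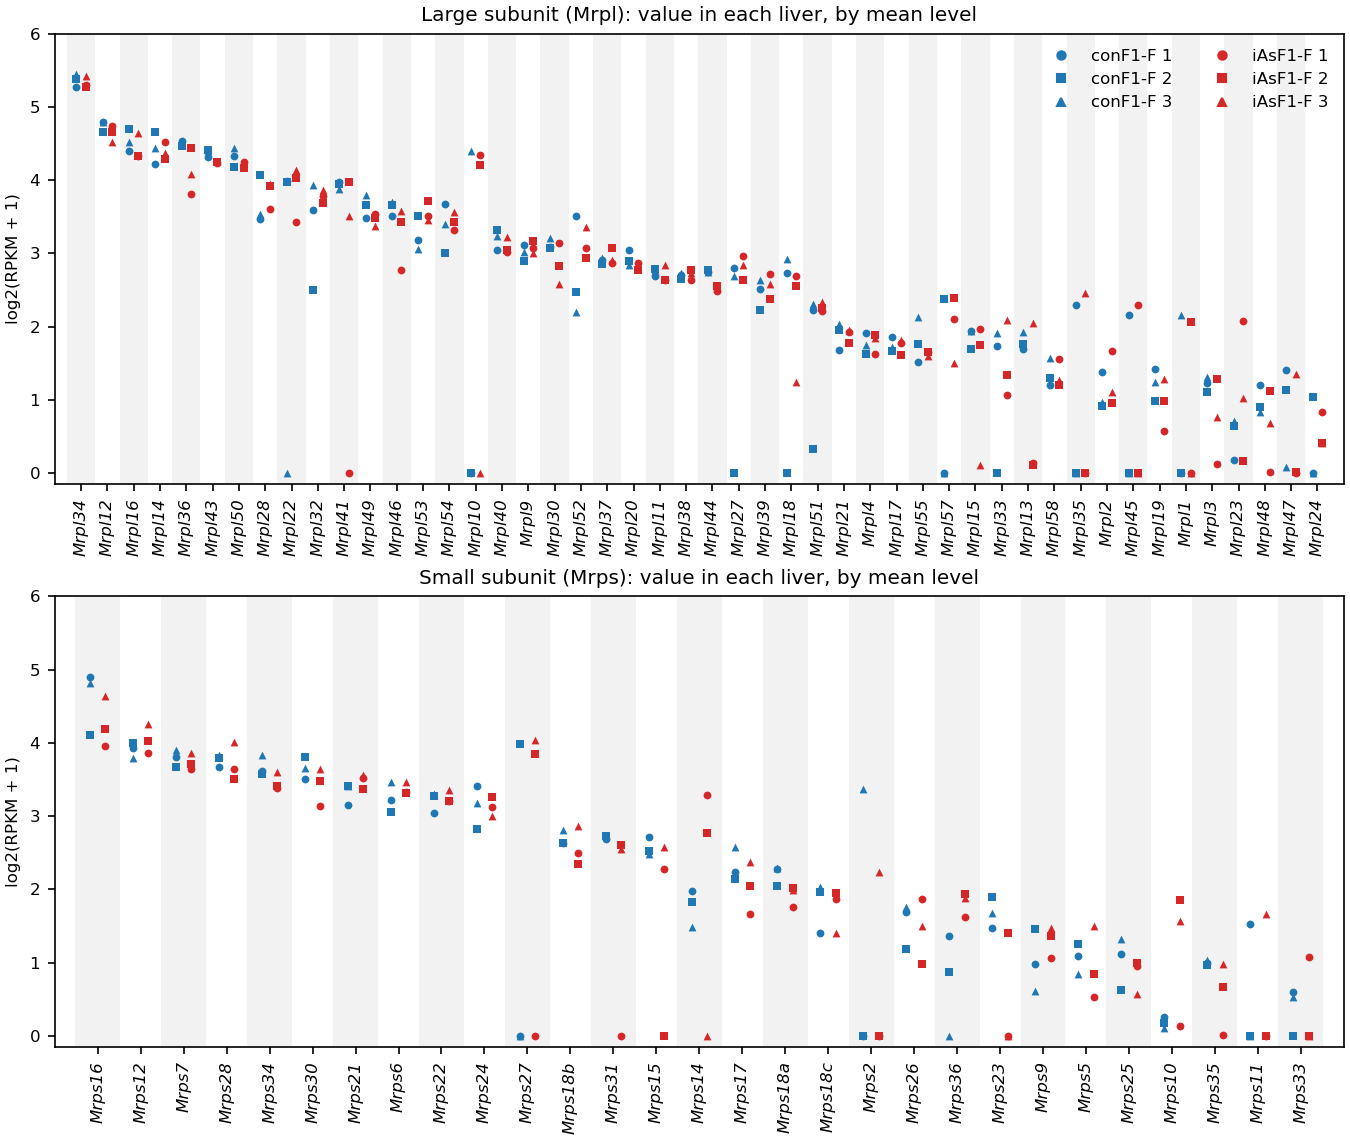
Values of the 77 members in each liver as log2(RPKM + 1), ordered by mean level, with the 48 large subunit genes above and the 29 small subunit genes below; blue points are conF1-F and red points iAsF1-F livers. For most members the 6 points lie together, while 21 members have points at 0 in some livers and not in others, in both groups.

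The large subunit mRNAs of highest mean RPKM as deposited were steady. Mrpl34, the counterpart of bacterial L34 and the highest of the 77 members by this value (39.8 RPKM, a single entry), stood at 37.5, 40.9 and 42.8 RPKM in conF1-F and 38.4, 37.6 and 41.7 RPKM in iAsF1-F. Its log2 fold change was -0.041 (SE 0.079, 95% interval -0.24 to 0.16, n = 3 livers a group, adjusted p = 0.936 by limma). Mrpl12, the stalk protein that recruits translation factors and in human cells also binds the mitochondrial RNA polymerase, stood at 26.8, 24.4 and 26.8 RPKM in conF1-F and 25.8, 24.1 and 21.9 RPKM in iAsF1-F. Mrpl16, the counterpart of bacterial L16, stood at 20.1, 24.9 and 21.9 RPKM in conF1-F and 19.1, 19.1 and 24 RPKM in iAsF1-F. The groups overlapped for these 3 genes, whose log2 fold changes were -0.041, -0.11 and -0.11. The lowest tested members, Mrpl3, Mrpl1 and Mrpl19, lay near the limit of 1 RPKM. Mrpl3 stood at 1.34, 1.16 and 1.47 RPKM in conF1-F and 0.0929, 1.44 and 0.706 RPKM in iAsF1-F. Mrpl19 stood at 1.68, 0.972 and 1.38 RPKM in conF1-F and 0.485, 0.979 and 1.44 RPKM in iAsF1-F. In both, iAsF1-F 1 was the lowest liver and the groups overlapped.

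Of the large subunit members with the smallest p, 5 were lower and 1 was higher in iAsF1-F on average, and none passed. Mrpl44, a large subunit protein with a domain related to RNase III, lies at chr1:79776018-79781445 of mm10. It stood at 5.74, 5.84 and 5.72 RPKM in conF1-F and 4.58, 4.85 and 4.77 RPKM in iAsF1-F. Every iAsF1-F liver was below every conF1-F liver, with a narrow spread in each group. Its log2 fold change was -0.24 (SE 0.085, 95% interval -0.45 to -0.026, n = 3 livers a group, adjusted p = 0.877 by limma). The unadjusted p was 0.0340, and the two-sided exact permutation test gave p = 0.1, the smallest that 3 against 3 allow. Mrpl36, the counterpart of bacterial L36, stood at 22.2, 21.1 and 21.5 RPKM in conF1-F and 13, 20.8 and 15.9 RPKM in iAsF1-F. Mrpl43, which has no bacterial counterpart, stood at 18.9, 20.3 and 20.2 RPKM in conF1-F and 17.9, 18 and 18.3 RPKM in iAsF1-F. For both, the iAsF1-F livers were all below the conF1-F livers, in Mrpl36 mostly through iAsF1-F 1 and 3. The log2 fold change was -0.39 (SE 0.17, limma adjusted p = 0.877) for Mrpl36 and -0.13 (SE 0.065, limma adjusted p = 0.877) for Mrpl43, and neither passed. Without iAsF1-F 1 the value of Mrpl36 was -0.24. Mrpl44 overlaps Wdfy1, Mrpl36 overlaps Ndufs6 and Mrpl43 overlaps Twnk in the annotation. In all, 24 of the 77 members overlap another coding gene of the table, and without a stated strand reads of overlapping genes cannot be told apart. Mrpl53, without a bacterial counterpart, was the member of this group on the higher side, at 8.09, 10.4 and 7.34 RPKM in conF1-F and 10.4, 12.2 and 9.96 RPKM in iAsF1-F. Its groups overlapped, and its log2 fold change was 0.31 (SE 0.15, limma adjusted p = 0.877). Mrpl13, the counterpart of bacterial L13, stood at 2.23, 2.38 and 2.80 RPKM in conF1-F and 0.0970, 0.0774 and 3.13 RPKM in iAsF1-F. iAsF1-F 1 and 2 were near 0, and iAsF1-F 3 was the highest of all 6. Its log2 fold change was -1.03 (SE 0.58, limma adjusted p = 0.877), and without iAsF1-F 3 it was -1.67 (adjusted p = 0.0811). Mrpl30, the counterpart of bacterial L30, stood at 7.52, 7.44 and 8.26 RPKM in conF1-F and 7.87, 6.10 and 4.97 RPKM in iAsF1-F, with iAsF1-F 2 and 3 lowest. Its log2 fold change was -0.28 (SE 0.17, limma adjusted p = 0.877), and it was -0.42 without iAsF1-F 1 and -0.14 without iAsF1-F 3.

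**Figure D2:**
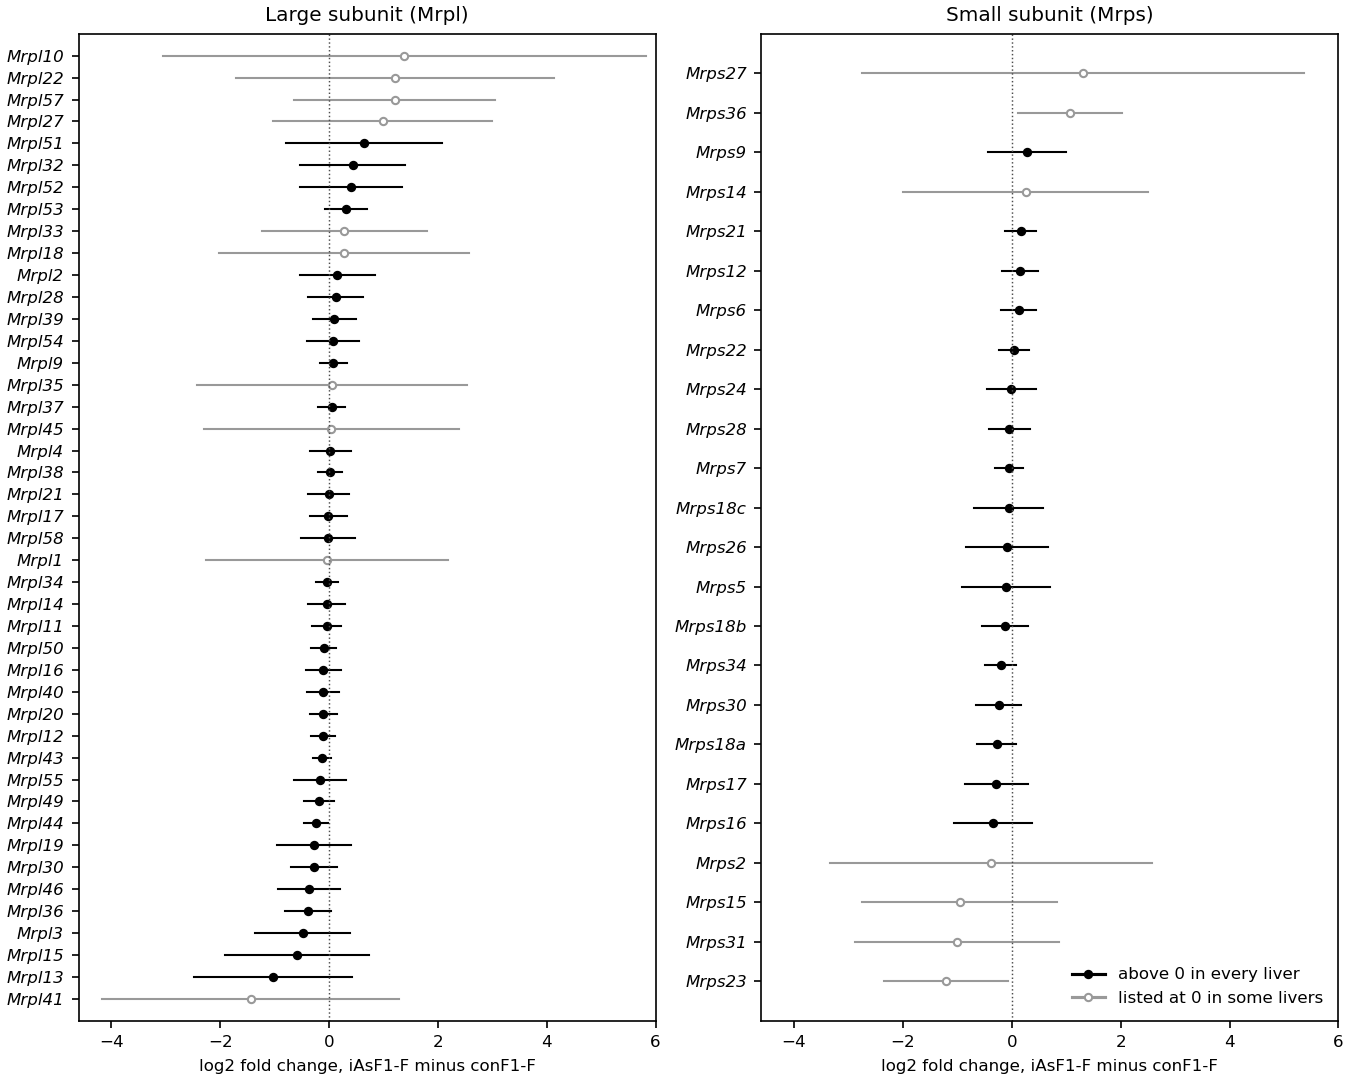
Log2 fold change, iAsF1-F minus conF1-F, on the log2(RPKM + 1) scale with the 95% interval from limma for the 44 large (left) and 24 small (right) subunit members tested; open grey points are members listed at 0 in some livers. Intervals cross 0 for all members but Mrpl44, Mrps36 and Mrps23, none of which passed the adjustment over 6448 genes, and the widest belong to members listed at 0.

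In the small subunit, Mrps16, Mrps12 and Mrps7, counterparts of bacterial S16, S12 and S7, had the highest mean RPKM as deposited. Mrps16 stood at 28.8, 16.2 and 27.3 RPKM in conF1-F and 14.6, 17.2 and 23.9 RPKM in iAsF1-F. Mrps12, which lies at the decoding centre, stood at 14.2, 14.9 and 12.8 RPKM in conF1-F and 13.5, 15.4 and 18.2 RPKM in iAsF1-F. Mrps7 stood at 13, 11.8 and 13.9 RPKM in conF1-F and 11.5, 12.1 and 13.6 RPKM in iAsF1-F. The groups overlapped in all 3 genes, and their log2 fold changes were -0.35, 0.15 and -0.051. Among the lowest tested, Mrps5 stood at 1.13, 1.39 and 0.801 RPKM in conF1-F and 0.439, 0.802 and 1.82 RPKM in iAsF1-F. Mrps9 stood at 0.975, 1.75 and 0.522 RPKM in conF1-F and 1.08, 1.57 and 1.77 RPKM in iAsF1-F. Both had overlapping groups. Mrps34, a protein of the small subunit without a bacterial counterpart, stood at 11.3, 10.9 and 13.3 RPKM in conF1-F and 9.45, 9.67 and 11.2 RPKM in iAsF1-F, with a log2 fold change of -0.21 (SE 0.11, limma adjusted p = 0.877). Mrps21, the counterpart of bacterial S21, stood at 7.86, 9.63 and 9.66 RPKM in conF1-F and 10.5, 9.32 and 10.8 RPKM in iAsF1-F, with a log2 fold change of 0.16 (SE 0.11, limma adjusted p = 0.877). In both, the groups overlapped. Without conF1-F 3 the value of Mrps34 was -0.12, and without conF1-F 1 that of Mrps21 was 0.072.

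Mrps18a and Mrps30 are small subunit genes by name, but structures of the mammalian mitochondrial ribosome place their proteins in the large subunit. Mrps18a stood at 3.86, 3.13 and 3.88 RPKM in conF1-F and 2.39, 3.07 and 2.97 RPKM in iAsF1-F. Every iAsF1-F liver was below every conF1-F liver, by little for conF1-F 2 and iAsF1-F 2, and the log2 fold change was -0.28 (SE 0.14, limma adjusted p = 0.877). Mrps30 stood at 10.4, 13 and 11.6 RPKM in conF1-F and 7.78, 10.1 and 11.4 RPKM in iAsF1-F, with overlapping groups and a log2 fold change of -0.24 (SE 0.16, limma adjusted p = 0.877), which was -0.10 without iAsF1-F 1. Counting both with the large subunit and leaving out Mrps36 gave 0 called of 46 large and 0 of 21 small subunit members, with 1 and 1 at an unadjusted p under 0.05 (limma).

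Mrps23, a small subunit protein without a bacterial counterpart, lies at chr11:88204388-88211507 of mm10 and stood at 1.76, 2.73 and 2.20 RPKM in conF1-F and 0, 1.66 and 0 RPKM in iAsF1-F. iAsF1-F 1 and 3 were listed at 0, and iAsF1-F 2 lay just under the lowest conF1-F liver. Its log2 fold change was -1.21 (SE 0.45, limma adjusted p = 0.877), with an unadjusted p of 0.0404. Its values are means of 2 entries by their decimals, and genes were listed at 0 intermittently in both groups, so no fold of RPKM is given.

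Mrps36 was the one member that was higher in iAsF1-F at an unadjusted p under 0.05, and it did not pass the adjustment. It was named as a small subunit protein, but the protein is now known as a subunit of the alpha-ketoglutarate dehydrogenase complex of the citric acid cycle, also called Kgd4. It appears in a heat map of the study that was drawn from these livers, so its difference here is not independent evidence. It lies at chr13:100735955-100744659 of mm10 and stood at 1.57, 0.832 and 0 RPKM in conF1-F and 2.09, 2.82 and 2.67 RPKM in iAsF1-F. All iAsF1-F livers were above all conF1-F livers, and conF1-F 3 was listed at 0. The log2 fold change was 1.07 (SE 0.38, 95% interval 0.11 to 2.03, n = 3 livers a group, adjusted p = 0.877 by limma). The unadjusted p was 0.0353, and the exact permutation test, two-sided, gave p = 0.1, the smallest possible. With a pseudocount of 0.1 in place of 1 the log2 fold change was 2.28, and without conF1-F 3 it was 0.69.

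Mrps36 has close copies elsewhere in the genome. Its 2 closest annotated pseudogenes, Mrps36-ps1 (chr17:53866715-53867020) and Mrps36-ps2 (chr7:105690259-105690567), both on the minus strand, are rows of the table as well. The stretch of 283 bases that all 3 share is shown to let the copies be compared. It is from the GENCODE M21 transcripts on mm10, in transcript sense from 5′ to 3′. Capitals mark the positions at which a copy differs, all 5 of them in Mrps36 and its own in each copy.
Mrps36: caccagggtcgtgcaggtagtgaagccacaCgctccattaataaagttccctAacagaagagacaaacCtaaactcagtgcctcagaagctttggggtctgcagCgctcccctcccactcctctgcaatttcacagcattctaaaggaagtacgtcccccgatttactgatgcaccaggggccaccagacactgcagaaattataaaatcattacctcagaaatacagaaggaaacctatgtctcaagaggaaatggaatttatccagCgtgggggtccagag
Mrps36-ps1: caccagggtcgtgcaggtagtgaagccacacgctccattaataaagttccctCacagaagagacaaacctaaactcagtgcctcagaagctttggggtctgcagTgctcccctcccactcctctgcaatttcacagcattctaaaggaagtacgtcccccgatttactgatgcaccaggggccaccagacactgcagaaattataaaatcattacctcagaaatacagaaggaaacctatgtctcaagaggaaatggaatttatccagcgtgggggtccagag
Mrps36-ps2: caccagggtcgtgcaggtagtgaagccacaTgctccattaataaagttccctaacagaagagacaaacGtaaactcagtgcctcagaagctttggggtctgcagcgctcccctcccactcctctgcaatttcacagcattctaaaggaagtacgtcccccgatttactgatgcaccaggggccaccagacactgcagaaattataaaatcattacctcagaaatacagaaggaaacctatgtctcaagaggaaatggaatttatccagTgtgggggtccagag

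Mrps36-ps1 differed from Mrps36 at 2 and Mrps36-ps2 at 3 of these positions. A read that falls between the capitals therefore matches all 3 sequences, and how such reads were shared out is not given in the sources used here. Mrps36-ps1 stood at 3.98, 4.50 and 4.82 RPKM in conF1-F and 2.84, 4.53 and 3.85 RPKM in iAsF1-F. Mrps36-ps2 stood at 4.14, 3.82 and 6.76 RPKM in conF1-F and 3.09, 4.14 and 3.60 RPKM in iAsF1-F. Both copies stood higher than Mrps36 in RPKM as deposited, which is scaled to the length of each gene, in every liver. Mrps36 is a mean of 2 entries by its decimals. Multiplied by entries, its mean over the 6 livers was 3.33 RPKM in place of 1.66 RPKM. On that count it stood above both copies in every iAsF1-F liver and below them in every conF1-F liver. The copies differed between groups in the other direction, with log2 fold changes of -0.21 (SE 0.17) and -0.33 (SE 0.22), and the groups overlapped. In conF1-F 3, where Mrps36 was listed at 0, both copies had their highest value of the 6 livers. The level of Mrps36 apart from its copies is therefore uncertain.

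**Figure D3:**
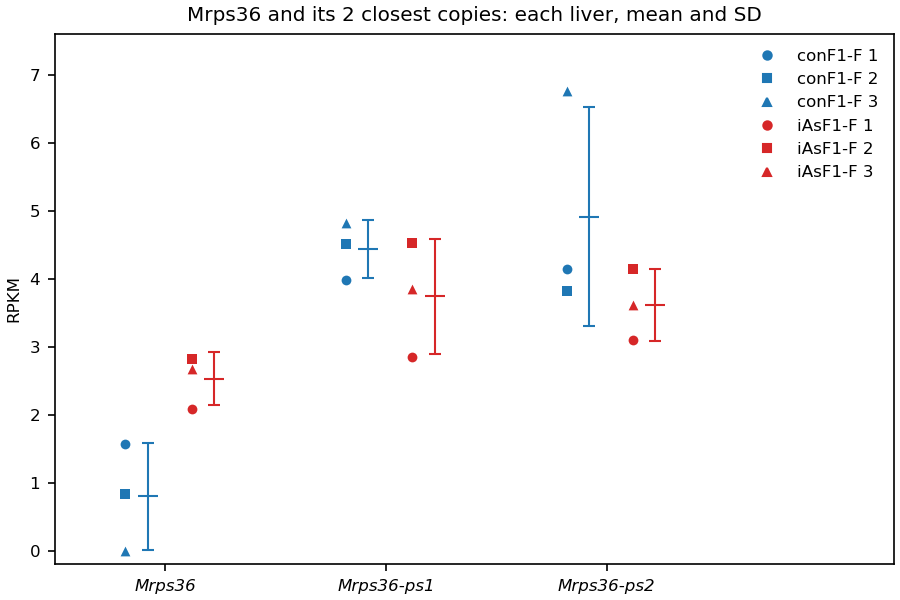
RPKM of Mrps36 and of its pseudogene copies Mrps36-ps1 and Mrps36-ps2 in each conF1-F (blue) and iAsF1-F (red) liver, with the mean and SD of 3 livers. Mrps36 ran from 0 to 1.57 RPKM in conF1-F and from 2.09 to 2.82 RPKM in iAsF1-F, whereas both copies overlapped between groups.

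Other members share sequence with copies too. Over at least 200 bases at an identity of at least 95%, 14 members had 18 pseudogene copies among the rows of the table. Of these members, 8 had a copy of higher mean RPKM as deposited than their own. Mrpl23, a protein of the polypeptide exit that was not tested for its low mean, stood at 0.129, 0.567 and 0.640 RPKM in conF1-F and 3.24, 0.123 and 1.03 RPKM in iAsF1-F. Its copy Mrpl23-ps1, identical over all 540 aligned bases, stood at 10.7, 8.65 and 9.11 RPKM in conF1-F and 9.95, 7.78 and 10.3 RPKM in iAsF1-F. The copy was above the gene in every liver. Mrps33 did not reach 1 RPKM on average either and stood at 0.510, 0 and 0.446 RPKM in conF1-F and 1.10, 0 and 0 RPKM in iAsF1-F, while its copy Gm5776, identical at 99.7% of 321 bases, stood at 14.7, 11.3 and 10.8 RPKM in conF1-F and 8.45, 15 and 12.4 RPKM in iAsF1-F. Mrpl51, without a bacterial counterpart, stood at 3.70, 0.255 and 3.94 RPKM in conF1-F and 3.64, 3.75 and 4.07 RPKM in iAsF1-F, with the single low liver in conF1-F. Its copy Gm14017, identical at 98.4% of 387 bases, stood at 17.3, 16.5 and 16.2 RPKM in conF1-F and 17.5, 16.3 and 20.2 RPKM in iAsF1-F, steady in all livers. For Mrpl23, Mrpl27, Mrpl48, Mrpl51, Mrps5, Mrps18b and Mrps33, which with Mrps36 are the 8 with such a copy, the level in the table is uncertain as a level of the ribosomal gene. Multiplied by entries, Mrpl27 (14.8 RPKM) and Mrps18b (21 RPKM) stood above their copies (5.99 and 14.9 RPKM).

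A large part of the spread among members lay in values listed at 0. Of the 77 members, 21 were listed at 0 in 1 to 4 livers and stood above 0 in the others, and 17 of these were among the 68 tested, where 19.6% of all tested genes were so listed. In all there were 45 such values, 24 in conF1-F and 21 in iAsF1-F livers, and none of the 21 members was at 0 in all livers of either group. In many of them a liver was either near the level of the others or at 0. Mrpl10, the stalk protein that carries Mrpl12, stood at 0, 0 and 20.0 RPKM in conF1-F and 19.3, 17.4 and 0 RPKM in iAsF1-F. Mrps27, an RNA-binding protein of the small subunit, stood at 0, 14.8 and 0 RPKM in conF1-F and 0, 13.4 and 15.5 RPKM in iAsF1-F. Mrpl22, which lines the polypeptide exit, stood at 14.9, 14.8 and 0 RPKM in conF1-F and 9.75, 15.3 and 16.6 RPKM in iAsF1-F. In these 3 genes the livers above 0 were within 2-fold of each other, in both groups. Mrpl41, without a bacterial counterpart, was at 0 in iAsF1-F 1 alone, with 14.8, 14.5 and 13.7 RPKM in conF1-F and 0, 14.8 and 10.4 RPKM in iAsF1-F. Mrps31, without a bacterial counterpart, was also at 0 in that liver alone and stood at 5.42, 5.65 and 5.70 RPKM in conF1-F and 0, 5.10 and 4.84 RPKM in iAsF1-F. Mrps31 was the last of the members whose groups did not overlap. Mrps15, the counterpart of bacterial S15, was at 0 in iAsF1-F 2 alone and stood at 5.60, 4.76 and 4.60 RPKM in conF1-F and 3.83, 0 and 4.99 RPKM in iAsF1-F.

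Mrpl27, Mrpl18 and Mrpl33 were at 0 in conF1-F 2 and in no other liver. Mrpl27, the counterpart of bacterial L27 and uncertain for its copy, stood at 5.97, 0 and 5.48 RPKM in conF1-F and 6.81, 5.23 and 6.20 RPKM in iAsF1-F. Mrpl18, the counterpart of bacterial L18, stood at 5.66, 0 and 6.59 RPKM in conF1-F and 5.45, 4.89 and 1.37 RPKM in iAsF1-F. Mrpl33 stood at 2.32, 0 and 2.77 RPKM in conF1-F and 1.10, 1.52 and 3.26 RPKM in iAsF1-F. These genes were above 0 in every iAsF1-F liver, and their groups overlapped. Mrpl57, without a bacterial counterpart, was at 0 in conF1-F 1 and 3 and stood at 0, 4.20 and 0 RPKM in conF1-F and 3.29, 4.23 and 1.84 RPKM in iAsF1-F. Mrps14 was at 0 in iAsF1-F 3 alone and stood at 2.93, 2.56 and 1.79 RPKM in conF1-F and 8.75, 5.84 and 0 RPKM in iAsF1-F. In both, the groups overlapped.

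In Mrpl45, Mrpl35, Mrpl1, Mrps2 and Mrps11 the 0s prevailed. Mrpl45, through which the ribosome is attached to the inner membrane, stood at 3.47, 0 and 0 RPKM in conF1-F and 3.92, 0 and 0 RPKM in iAsF1-F. Mrpl35 stood at 3.90, 0 and 0 RPKM in conF1-F and 0, 0 and 4.50 RPKM in iAsF1-F. Mrpl1 stood at 0, 0 and 3.45 RPKM in conF1-F and 0, 3.18 and 0 RPKM in iAsF1-F. Each was above 0 in 1 liver of each group, at like levels. Mrps2 stood at 0, 0 and 9.33 RPKM in conF1-F and 0, 0 and 3.71 RPKM in iAsF1-F. Mrps11, untested for its low mean, stood at 1.89, 0 and 0 RPKM in conF1-F and 0, 0 and 2.17 RPKM in iAsF1-F. These also had 1 liver above 0 in each group. Mrpl47, at 0 in iAsF1-F 1 alone, stood at 1.66, 1.19 and 0.0579 RPKM in conF1-F and 0, 0.00708 and 1.54 RPKM in iAsF1-F. Mrpl24 stood at 0, 1.05 and 0 RPKM in conF1-F and 0.784, 0.331 and 0.326 RPKM in iAsF1-F. Neither reached a mean of 1 RPKM. For tested members listed at 0 the log2 fold changes ran from -1.44 (Mrpl41) to 1.39 (Mrpl10), with 95% intervals of -4.17 to 1.29 and -3.05 to 5.82. Such values do not bound a change.

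Levels of the members as deposited were lower where a value averages more entries. By their decimals, 54 of the 77 members have values that are means of 2 to 6 entries, and 23 rest on a single entry. Members with 1 entry had a median of 10.8 RPKM, those with 2 or 3 entries 3.96 RPKM and those with 4 to 6 entries 2.43 RPKM. Multiplied by the number of entries, the medians were 10.8, 8.91 and 12.1 RPKM. Over all tested genes the medians were 5.45, 4.55 and 3.12 RPKM as deposited and 5.45, 11 and 14.8 RPKM multiplied by entries. The order of the members by level differs between both ways of counting, with Mrpl12 (49.9 RPKM) above Mrpl34 (39.8 RPKM) and Mrps34 (32.9 RPKM) above Mrps16 (21.3 RPKM) when multiplied by entries, and it was not read further. Values of 0 were found in 8 of the 23 members with 1 entry, 13 of the 33 with 2 or 3, and 0 of the 21 with 4 to 6. Members with more entries had partial steps instead, among them Mrpl13 above. Mrpl15, a mean of 5 entries, stood at 2.84, 2.24 and 2.85 RPKM in conF1-F and 2.89, 2.37 and 0.0789 RPKM in iAsF1-F. Mrps10, a mean of 6 entries and untested for its low mean, stood at 0.192, 0.126 and 0.0777 RPKM in conF1-F and 0.101, 2.63 and 1.97 RPKM in iAsF1-F. Mrps10 was low in 4 livers and high in iAsF1-F 2 and 3.

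**Figure D4:**
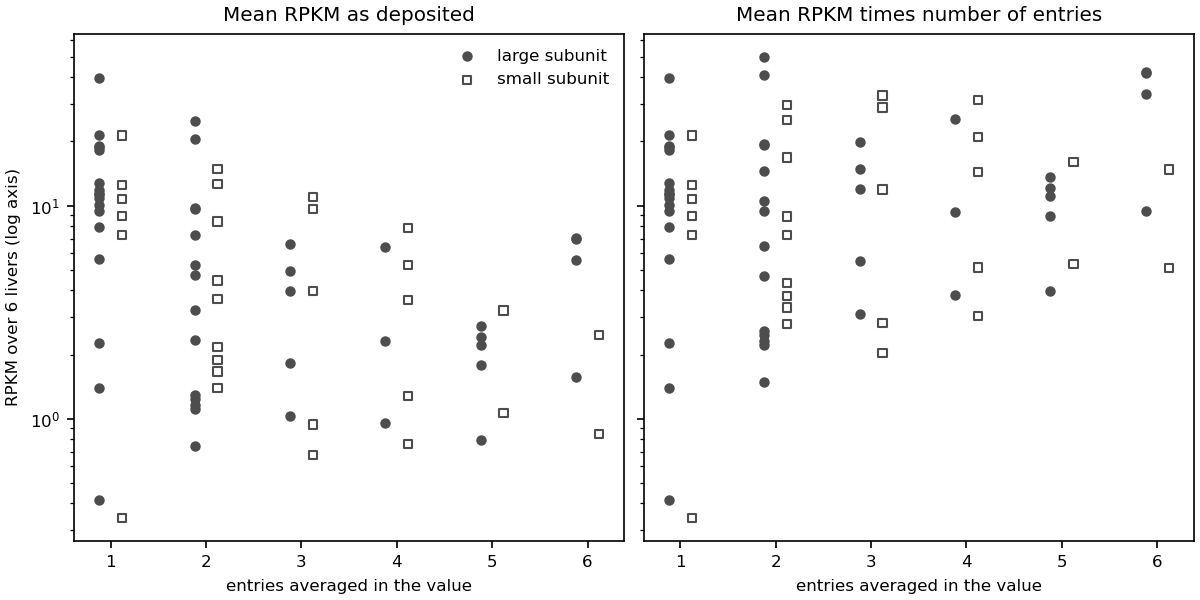
Mean RPKM over 6 livers of each of the 77 members (log axis) against the number of entries that its value averages, as deposited (left) and multiplied by that number (right); filled points are large and open squares small subunit genes. As deposited, the median falls from 10.8 RPKM with 1 entry to 2.43 RPKM with 4 to 6, whereas multiplied by entries it is 10.8 and 12.1 RPKM.

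Taken by direction, more members lay below 0 than above, with small differences. The median log2 fold change was -0.016 over 44 large and -0.076 over 24 small subunit members, beside -0.0015 over all 6448 tested genes. Of the 51 members above 0 in every liver, 34 were below 0 (66.7%, beside 50.9% of such genes among all tested), 22 of 34 in the large and 12 of 17 in the small subunit. This depended on conF1-F 3, in which members stood high. Without that liver, 27 of 51 were below 0 (52.9%, beside 49.9%) and the median of the small subunit was 0.0059. Rescaling without the mitochondrially encoded genes moved the median of the large subunit to 0.0015 and that of all tested genes to 0.020. After it, 31 of the 51 members were below 0 (60.8%, beside 46% of such genes among all tested). Groups did not overlap for 7 of 68 tested members (10.3%, beside 11.5% of all tested genes), 6 of them lower in iAsF1-F (Mrpl36, Mrpl43, Mrpl44, Mrps18a, Mrps23 and Mrps31, beside 5.71% of all genes) and 1 higher (Mrps36, beside 5.83%).

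The members varied by liver within each group. Of the 51 members above 0 in every liver, 16 had their highest value in conF1-F 3 (31.4%, beside 20.6% of all such genes) and 16 their lowest in iAsF1-F 1 (31.4%, beside 19.6%). The median deviation from the mean of the 6 livers, on the log2(RPKM + 1) scale, was 0.10 for the large and 0.13 for the small subunit in conF1-F 3, and 0.036 and 0.15 in iAsF1-F 3. It was -0.034 for the large and -0.115 for the small subunit in iAsF1-F 1, and -0.069 and -0.052 in iAsF1-F 2. In conF1-F 1 and 2 it was 0.064 and 0.041 for the large, and 0.0049 and 0.0050 for the small subunit. All conF1-F livers thus lay above 0 in both subunits, whereas iAsF1-F 1 and 2 lay below and iAsF1-F 3 above. Over all tested genes above 0 in every liver it was 0.042, -0.024 and 0.025 in conF1-F 1 to 3. In iAsF1-F 1 to 3 it was -0.0062, -0.0081 and 0.050 over these genes. Differences between the members and these genes were not tested. The library of iAsF1-F 1 had the lowest relative depth (67.0%) and the highest share of RPKM on mitochondrially encoded genes (17.0%, beside 14.2% to 15.8% in the others), and their part in its low values was not tested. Across the 6 livers, the median Pearson correlation between pairs of these members was 0.095, beside 0.021 for all tested genes above 0 in every liver and 0.31 for 67 cytosolic ribosomal proteins. Within the subunits it was 0.024 for 34 large and 0.27 for 17 small subunit members. These correlations are descriptions over the same 6 libraries, which share depth and scaling.

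**Figure D5:**
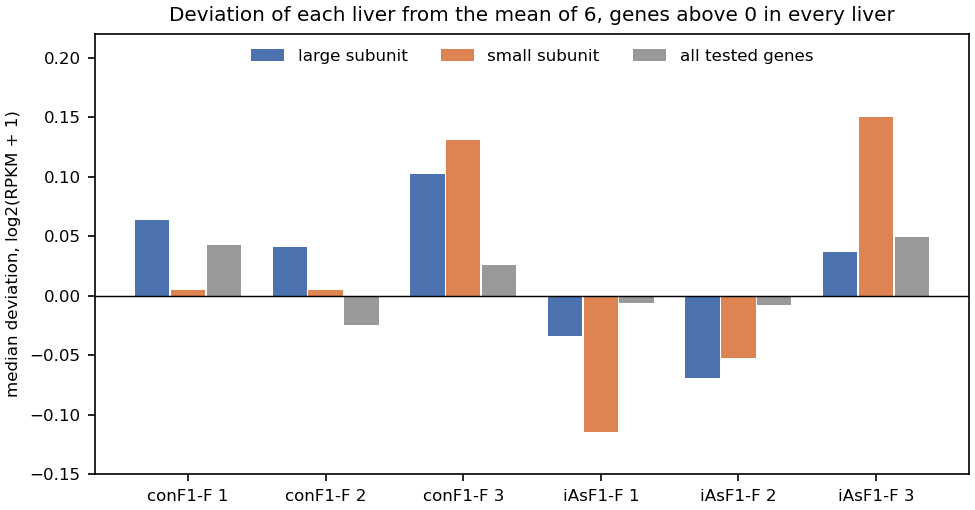
Median deviation of each liver from the mean of the 6, in log2(RPKM + 1), over the 34 large subunit members, the 17 small subunit members and all 5187 tested genes that were above 0 in every liver. The small subunit bars run from -0.115 in iAsF1-F 1 to 0.15 in iAsF1-F 3, on both sides of 0 within iAsF1-F. The conF1-F bars of both subunits all lie above 0.

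The other 20 large subunit members averaged 0.794 to 20.5 RPKM. The 19 of them that were tested had log2 fold changes from -0.18 (Mrpl49) to 0.40 (Mrpl52), and the groups overlapped in all 19. The other 9 small subunit members averaged 0.759 to 12.5 RPKM, and the 7 tested ran from -0.29 (Mrps17) to 0.12 (Mrps6), also with overlapping groups. Mrpl48, Mrps25 and Mrps35 stood below the limit of 1 RPKM and were not tested.

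Members of bacterial origin and those without a bacterial counterpart were set side by side. The median log2 fold change was -0.031 over 27 large subunit members with a bacterial counterpart and 0.019 over 17 without, and -0.056 over 16 small subunit members with and -0.15 over 8 without. In each of these 4 classes 0 members were called (limma), and 0, 1, 0 and 2 had an unadjusted p under 0.05. These were 0%, 5.88%, 0% and 25% of the tested members, beside 5.12% of all tested genes. The last 2 were Mrps23 and Mrps36, the latter now known as a subunit of another complex. In that class of 8, 4 were listed at 0 in some livers, so its values say little about such proteins. By place in the large subunit, 0 of 3 stalk, 0 of 2 polypeptide exit and 0 of 6 central protuberance members tested were called, and none had an unadjusted p under 0.05. Mrpl46 and Mrpl27 had the smallest p of the central protuberance. Mrpl46 stood at 10.4, 11.6 and 12 RPKM in conF1-F and 5.81, 9.75 and 10.9 RPKM in iAsF1-F, lowest in iAsF1-F 1, with overlapping groups. Its gene overlaps Mrps11 head to head.

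The other genes of mitochondrial translation were taken by list. None of the tested genes was called in any list (limma), and none had an unadjusted p under 0.05. The lists held 5 tested of 5 subunits with other names, 8 of 23 genes of assembly and rRNA, 9 of 14 translation factors, 5 of 19 genes of aminoacyl-tRNA synthesis, 3 of 7 genes of mitochondrial DNA transcription and upkeep, and 3 of 7 nuclear regulators. Among the subunits with other names, Ptcd3, a small subunit protein, stood at 0.991 ± 0.401 RPKM (SD, n = 3) in conF1-F and 1.64 ± 0.216 RPKM (SD, n = 3) in iAsF1-F, with every iAsF1-F liver above every conF1-F liver and an adjusted p = 0.877 (limma). Gadd45gip1, a large subunit protein, stood at 17.4 ± 1.16 RPKM (SD, n = 3) in conF1-F and 16.2 ± 1.57 RPKM (SD, n = 3) in iAsF1-F. In assembly, Ngrn, needed for the large subunit rRNA, stood at 3.82 ± 0.0955 RPKM (SD, n = 3) in conF1-F and 3.19 ± 0.461 RPKM (SD, n = 3) in iAsF1-F, with every iAsF1-F liver below every conF1-F liver and an adjusted p = 0.877 (limma). Rbfa, which matures the small subunit, stood at 11.8 ± 2.5 RPKM (SD, n = 3) in conF1-F and 9.34 ± 2.16 RPKM (SD, n = 3) in iAsF1-F. These differences did not pass.

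Of the translation factors, Tufm, the elongation factor that brings tRNAs to the ribosome, stood at 6.61 ± 0.275 RPKM (SD, n = 3) in conF1-F and 5.23 ± 1.92 RPKM (SD, n = 3) in iAsF1-F. Taco1, a translational activator of the cytochrome c oxidase subunit mt-Co1, was at 0 in iAsF1-F 3 and stood at 12.8, 10.9 and 10.3 RPKM in conF1-F and 10.8, 11 and 0 RPKM in iAsF1-F. Both lower means came mostly from iAsF1-F 3. Of aminoacyl-tRNA synthesis, Gatb, a subunit of the amidotransferase that makes glutaminyl-tRNA, stood at 1.24 ± 1.09 RPKM (SD, n = 3) in conF1-F and 2.40 ± 0.201 RPKM (SD, n = 3) in iAsF1-F. Iars2, the isoleucyl-tRNA synthetase, stood at 1.08 ± 0.887 RPKM (SD, n = 3) in conF1-F and 2.14 ± 0.843 RPKM (SD, n = 3) in iAsF1-F. The higher means in iAsF1-F were within the spread of the livers. Twnk, the mitochondrial DNA helicase, was at 0 in iAsF1-F 1 and stood at 4.96, 4.81 and 4.61 RPKM in conF1-F and 0, 4.75 and 4.57 RPKM in iAsF1-F. Ssbp1, which binds single-stranded mitochondrial DNA, stood at 1.37 ± 0.279 RPKM (SD, n = 3) in conF1-F and 1.49 ± 0.322 RPKM (SD, n = 3) in iAsF1-F. Among regulators, Yy1 was at 0 in conF1-F 2 and stood at 5.56, 0 and 4.49 RPKM in conF1-F and 7.49, 9.71 and 5.09 RPKM in iAsF1-F. Esrra, the nuclear receptor ERRα, stood at 3.05 ± 1.44 RPKM (SD, n = 3) in conF1-F and 2.37 ± 1.77 RPKM (SD, n = 3) in iAsF1-F. In none of these genes did the groups separate.

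The RNA partners of the members are encoded in mitochondrial DNA. mt-Rnr1, the small subunit rRNA, stood at 1077, 1175 and 703 RPKM in conF1-F and 1176, 1168 and 913 RPKM in iAsF1-F. mt-Rnr2, the large subunit rRNA, stood at 824, 853 and 629 RPKM in conF1-F and 900, 886 and 819 RPKM in iAsF1-F. Both overlapped between groups, with conF1-F 3 lowest, and their log2 fold changes were 0.16 (SE 0.23) and 0.19 (SE 0.13). Of 35 tested mitochondrially encoded genes, 0 were called (limma), and all 35 had a log2 fold change above 0 (median 0.14). An unadjusted p under 0.05 (limma) was reached by 5 of the 35 (14.3%, beside 5.12% of all tested genes). Of the 13 that encode proteins, 4 reached it (30.8%). Of 76 tested cytosolic ribosomal proteins 0 were called as well, with 3 at an unadjusted p under 0.05 (3.95%) and a median of 0.029. The differences between these sets and the members were not tested.

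Promoters of the members were examined for letters that nuclear regulators of mitochondrial genes are known to bind. RefSeq windows of GRCm38.p6, from 250 bases before to 50 after the start, were matched for 68 of the 77 members by symbol, and motifs were searched on both strands. CCGGAAG, a site of ETS factors such as Gabpa, was found in 38.2% of the 68 members (15 of 42 large and 11 of 26 small subunit genes), 42.6% of 54 cytosolic ribosomal proteins, 21.3% of 3680 other tested genes and 9.93% of all 27025 genes with a window. GCGCATG, the NRF1 core that overlaps itself in GCGCATGCGC, was in 11.8% of the members (7 of 42 large and 1 of 26 small subunit genes). It was in 9.26% of the cytosolic ribosomal proteins, 8.32% of the other tested genes and 4.41% of all genes. AAGATGG, a core of YY1 sites, was in 17.6% of the members and 14.8% of the cytosolic ribosomal proteins. It was in 8.64% of the other tested genes and 7.28% of all genes. The E-box CACGTG was in 7.35% of the members, 9.26% of the cytosolic ribosomal proteins, 11.8% of the other tested genes and 8.09% of all genes. TATAAA was in 7.35% of the members, 13% of the cytosolic ribosomal proteins, 10.2% of the other tested genes and 15.7% of all genes. These are matches of letters and not measured binding.

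The 150 bases before the start are shown for 4 members, to let the places of these letters be seen beside the levels above. They are Mrpl34 as the member of highest mean RPKM as deposited, Mrpl22 with both an ETS and an NRF1 match, Mrpl32 with 4 NRF1 matches and Mrps22 for the small subunit. Capitals mark matches to CCGGAAG or GCGCATG on either strand.
Mrpl34 (chr8:71464776-71464925, plus strand): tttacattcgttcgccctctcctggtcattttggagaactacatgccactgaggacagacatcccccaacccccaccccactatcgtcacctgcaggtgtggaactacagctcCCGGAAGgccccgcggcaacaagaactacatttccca
Mrpl22 (chr11:58171514-58171663, plus strand): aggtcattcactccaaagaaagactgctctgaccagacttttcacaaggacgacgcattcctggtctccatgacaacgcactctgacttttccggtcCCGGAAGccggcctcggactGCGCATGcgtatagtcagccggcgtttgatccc
Mrpl32 (chr13:14613038-14613187, minus strand): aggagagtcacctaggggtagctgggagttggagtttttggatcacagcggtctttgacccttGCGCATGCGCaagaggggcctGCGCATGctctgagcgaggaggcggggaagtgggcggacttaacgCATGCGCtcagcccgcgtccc
Mrps22 (chr9:98601680-98601829, minus strand): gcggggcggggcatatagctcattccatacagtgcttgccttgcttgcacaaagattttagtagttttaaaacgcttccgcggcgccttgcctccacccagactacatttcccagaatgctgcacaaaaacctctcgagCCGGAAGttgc

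The ETS match began 37 bases before the start in Mrpl34, 53 in Mrpl22 and 11 in Mrps22. Mrpl32, the counterpart of bacterial L32, stood at 11.1, 4.63 and 14.3 RPKM in conF1-F and 12.8, 12 and 13.6 RPKM in iAsF1-F, with conF1-F 2 lowest. Mrps22, a small subunit protein without a bacterial counterpart, stood at 7.27, 8.66 and 8.88 RPKM in conF1-F and 8.20, 8.22 and 9.22 RPKM in iAsF1-F, close in all livers. The log2 fold changes of Mrpl32 and Mrps22 were 0.44 (SE 0.38) and 0.046 (SE 0.11), and their groups overlapped.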

How the data were processed

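Liver RNA of 3 conF1-F and 3 iAsF1-F mice was sequenced. The authors deposited RPKM values per gene. The mm10 genome and the tools DESeq2 1.8.2, HTSeq and STAR 2.5.3a stand in the submitters' processing notes, with no role given, and the program behind the RPKM values is not given in the sources used here. The members and the gene lists were chosen with earlier results of these data known.

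Tables of single livers and of the series were equal in all 105744 cells compared, after 13 cells shown as dates had been converted. Genes with a mean RPKM of 1 or more were fitted as log2(RPKM + 1) by limma 3.58.1 (R 4.3.3) with a variance trend, the group as the only term and Benjamini-Hochberg adjustment over 6448 genes, called at 0.05. Since the values are not counts, edgeR was not run. On simulated data with 200 of 6448 genes changed, in 10 runs, the comparison recovered 8.59% of changes of 0.5, 39.9% of 1 and 63.7% of 2 on the log2 scale. Single genes were also compared by exact permutation. The number of entries averaged in a value was read from its decimals (5497 genes with 2 or more). Copies were found by blastn 2.17.0 in GENCODE M21 transcripts, and pandas 2.3.3, numpy 2.4.6 and matplotlib 3.10.9 (Python 3.11.15) served for tables and plots.

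Values in every liver are given, for each subunit, for the 6 members of smallest p, the 3 highest and 3 lowest tested, those listed at 0 in some livers and above 1 RPKM in another, and Mrps36, Mrps18a and Mrps30. In each further list the 2 genes of smallest p are named. Mrpl15, Mrpl23, Mrpl32, Mrpl51, Mrps10 and Mrps22 were added after their values were seen. Other settings were a pseudocount of 0.1, no filter, robust moderation, the replicate number as a block, rescalings, genes listed at 0 left out, subunits by structure and each liver left out. Multiplying values by entries, and counting directions under all settings, were added after the data were seen.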

Additional observations from a re-analysis of the deposited data

How the results depend on the processing

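Under all settings run, 0 large and 0 small subunit members were called. At an unadjusted p under 0.05, limma gave 1 large and 2 small subunit members and 330 genes in all. Over all genes the 16 calls became 5 with genes listed at 0 left out, and 28 to 40 with each liver left out. The replicate number as a block gave 0 calls over all genes. Deviations of livers with the same number correlated at -0.068, 0.017 and 0.010 across tested genes. Those of livers with different numbers correlated at -0.069 to 0.061. These values show no pairing by number, but they cannot exclude a shared litter or batch, which the labels do not give. The 12 members with a reported fold change from the smallest p kept their direction in all 166 values under 8 other settings and 6 left-out livers, and the lowest adjusted p among them was 0.0811. These members were chosen by their p in the same livers. Without the filter, with robust moderation, with the replicate block or with genes listed at 0 left out, the fold change cannot differ. The groups of Mrpl36, Mrpl43, Mrpl44, Mrps18a, Mrps23 and Mrps36 did not overlap. For these, leaving out a liver, the lower pseudocount and multiplying by entries could not turn the direction either. Only the settings left for each member could have done so. Leaving out each liver gave medians of -0.059 to -0.0092 for the large and -0.15 to 0.0059 for the small subunit. Of members above 0 in every liver, 27 to 36 of 51 then lay below 0. Depth limits the members of low RPKM most, and read numbers are unknown. The median log2 fold change of all tested genes was -0.0015 as deposited, 0.0019 after rescaling to the median ratio and 0.020 after rescaling without mitochondrially encoded genes.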
